A study of Mus musculus with 16 samples.

Results

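The comparison set 6 B cell lymphomas carrying 1 p53-246 allele over a p53-null allele, p53(246/-), against 6 lymphomas without p53, p53(-/-). These 12 samples were all the lymphomas among the 16 samples of the study, chosen by the genotype in their titles. Both groups were labelled as Myc-induced, came from lymph nodes of mice of a C57BL6/129 hybrid background, and were purified by magnetic depletion of other cells. The other 4 samples were normal spleen B cells, 2 of each genotype. By these labels no group carried a normal p53 allele. The labels give neither the change that "246" denotes, nor the Myc transgene, nor ages, nor whether each sample came from its own mouse, so p-values measure only the spread between these samples. Total RNA was measured on 1 array per sample, as a log2 intensity for each of 23332 transcript clusters, the gene-level units of the array. Of these, 14996 carried exactly 1 gene symbol, 1019 several and 7317 none in the annotation used.

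The p53 protein is a transcription factor that is stabilised by DNA damage and by oncogenes such as Myc, and it switches on genes for cell cycle arrest and cell death. Many B cell lymphomas driven by Myc in mice lose that response during their growth, by loss of p53 itself or of its activator Arf. A mutant p53 can fail to bind its target genes, and some mutants have been described to alter transcription through other factors. Comparing tumours with a mutant p53 against tumours with none asks whether the mutant protein leaves its own mark on the transcriptome.

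No transcript cluster differed between p53-246 and p53-null lymphomas at an adjusted p under 0.05 (limma, Benjamini-Hochberg over all 23332, 0% called, smallest adjusted p 0.331). At an unadjusted p under 0.05 there were 689 (2.95%), 295 with a higher and 394 with a lower mean in p53-246, where uniform p-values would give 1167. Of the clusters with 1 symbol 2.51% were below that level, against 3.92% of those with none. The groups did not overlap, with all 6 values of 1 genotype above all 6 of the other, in 17 clusters with p53-246 higher (0.0729%) and 14 with p53-246 lower (0.06%). Without p53-246 lymphoma 6, an array that stood apart, 79 clusters did not overlap, 45 of them higher, but 5 against 6 arrays separate completely in 2 of 462 divisions and 6 against 6 in 2 of 924.

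The intervals show how large a difference could have been missed. Among 12053 clusters above the low-value cutoff in a lymphoma group, the 95% interval of the genotype difference lay within 2-fold in either direction for 10846 (90.0%), and within 1.5-fold for 7198 (59.7%). The cutoff, 5.16 on the log2 scale, was the 95th percentile of the mean level of 801 clusters for olfactory and vomeronasal receptors, genes of sensory neurons. The median half-width of the interval was a factor of 1.27 over all clusters. Only 21 clusters above the cutoff had means 2-fold or more apart, 6 of them with 1 symbol, and 297 had means 1.5-fold or more apart.

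**Figure D1:**
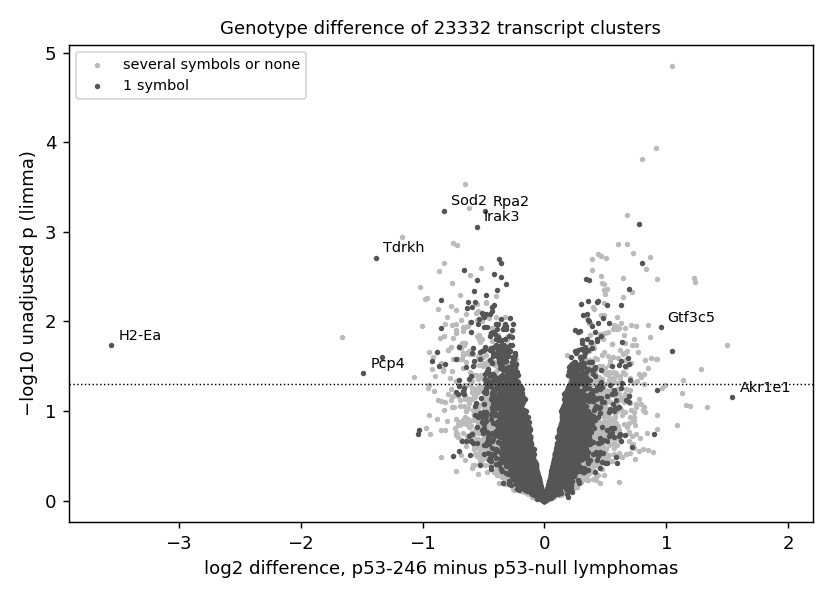
Each point is a transcript cluster, with the log2 difference between the means of 6 p53-246 and 6 p53-null lymphomas on the x axis and −log10 of the unadjusted limma p on the y axis. The dotted line is an unadjusted p of 0.05, passed by 689 of 23332 clusters, and none passed after adjustment.

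Some B cell genes were strongly expressed in both genotypes, but mature B markers as a list were lower than in normal B cells. Cd79b, a signalling chain of the B cell receptor, had a mean of 11.14 in p53-246 and 11.03 in p53-null lymphomas, and Pax5, the factor that maintains B cell identity, of 9.22 and 9.50. Among 16 mature B markers, 10 to 13 lay above the cutoff in each lymphoma, and 16 in each normal sample. Their mean level was 6.97 in p53-246 and 6.95 in p53-null lymphomas, against 9.42 to 9.68 in the normal samples. Pro-B and pre-B markers averaged 6.38 and 6.41 in the lymphoma groups, against 5.87 to 6.17 in the normal samples. Of the lymphomas, p53-null lymphoma 1 at 5.86 was below that range and p53-246 lymphoma 6 at 6.13 within it. The B cell stage of the lymphomas was not tested. The Myc cluster itself ran from 5.72 to 6.42 over the 12 lymphomas, below the 7.91 to 8.95 of the normal B cells, and its genotype difference was −0.06 (SE 0.14). Whether this cluster reads the Myc transgene, which the labels do not give, was not tested. The 29 measured Myc targets averaged 8.48 to 8.74 in the lymphomas, against 6.91 to 7.04 in the normal samples. No cluster carried the single symbol of the p53 gene, so the targeted gene was not analysed here. Eif2s3y, a Y-linked translation factor gene, was above 9 in 2 lymphomas of each genotype and below 4 in the other 4, so sex was balanced between the groups.

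Whole profiles were not separated by genotype at the test's threshold. The mean Pearson correlation between 2 arrays was 0.971 for the 15 pairs of p53-null lymphomas, 0.955 for the 15 pairs of p53-246 lymphomas and 0.964 for the 36 pairs of unlike genotype. The within-genotype mean minus the between-genotype mean was −0.00097, with an exact permutation p of 0.465 over all 924 divisions of the 12 lymphomas into 6 and 6 (two-sided, smallest possible p 0.00217). Lymphoma 6 of the p53-246 group stood apart: its values had an SD of 1.71, against 1.87 to 1.999 in the other lymphomas, and a mean correlation of 0.929 with them. Without it, pairs of p53-246 lymphomas had a mean correlation of 0.969 and pairs of unlike genotype 0.970.

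**Figure D2:**
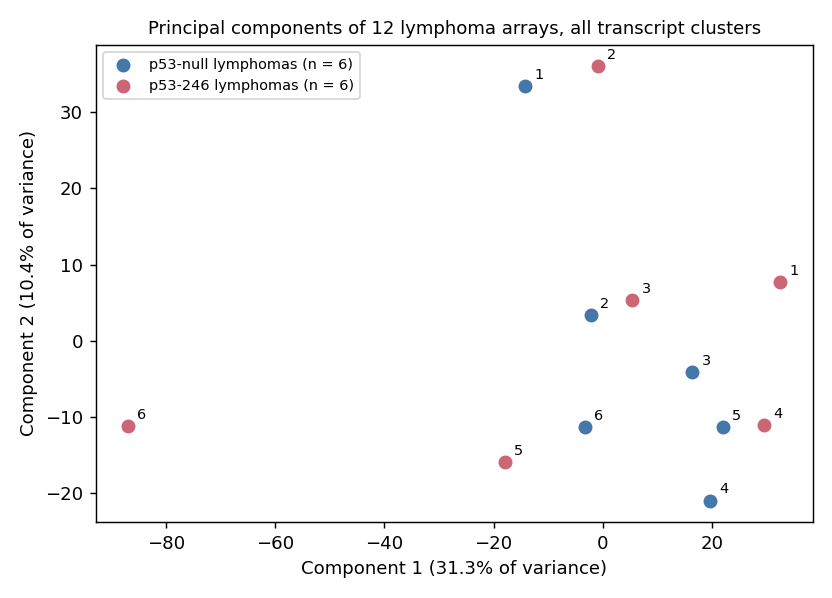
The 12 lymphoma arrays on the first 2 principal components of all 23332 transcript clusters, with replicate numbers beside the points. Component 1 carried 31.3% of the variance and set p53-246 lymphoma 6, at −86.8, apart from the other 11, while points of both genotypes lie among each other.

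The spread among lymphomas of a genotype did not pass the test either, and its excess in p53-246 was gone without that array. Over clusters above the cutoff, the median SD between lymphomas was 0.336 in p53-246 and 0.271 in p53-null, a median ratio of 1.23 (exact permutation p 0.448, 924 divisions). Without p53-246 lymphoma 6 the median SD was 0.265 and the ratio 0.997 (exact permutation p 0.978, 462 divisions).

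No measured gene of a list that normal p53 switches on passed a test between the lymphomas. Of 45 listed p53 targets 41 were measured, and 13 of these lay below the cutoff, where a change is hard to see. None of 41 measured p53 targets had even an unadjusted p under 0.05, against 2.51% of the 14860 genes with 1 symbol, and 24 of the 41 (58.5%) had a higher mean in p53-246, against 58.2% of all genes. The median difference of the targets was 0.06 and that of all genes 0.03. Without the 2 arrays of narrow spread, p53-246 lymphoma 6 and p53-null normal sample 1, 1 target was under that level, the stress sensor Sesn2, whose values of 3.88 to 4.35 were below the cutoff in all 12 lymphomas (difference 0.17 with all arrays and 0.19 without the 2). Cdkn1a, the p21 inhibitor that carries out p53-dependent arrest, lay between 4.02 and 4.64 in p53-246 and between 4.07 and 4.51 in p53-null lymphomas, below the cutoff in all 12. The groups overlapped, with 2 p53-246 values above and 1 below all p53-null values, and a difference of 0.08 (SE 0.12, 95% interval −0.18 to 0.33). Ccng1, cyclin G1, was strongly expressed at 10.28, 10.60 and 10.96 (lowest, median and highest) in p53-246 and at 10.41, 10.47 and 10.65 in p53-null lymphomas, a difference of 0.09 (SE 0.11).

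Mdm2 encodes the ubiquitin ligase that degrades p53 and is itself a p53 target. Its levels in p53-246 lymphomas 1 to 6 were 8.63, 8.38, 8.30, 8.69, 7.88 and 7.33, and in p53-null lymphomas 8.39, 8.27, 8.44, 8.63, 8.68 and 8.27. Only p53-246 lymphomas 5 and 6 lay below all p53-null lymphomas. The difference was −0.25 (SE 0.19), and −0.07 (SE 0.14) without the narrow arrays. Bbc3, the death effector Puma, had means below the cutoff in both groups (difference 0.11, SE 0.12). At the edges of the list stood Polh, the translesion polymerase eta, at −0.39 (SE 0.19) and at −0.23 without p53-246 lymphoma 6, and Cd80, a costimulatory ligand for T cells, at 0.93 (SE 0.45).

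Cd80 shows how single lymphomas set such a value. It was 7.59 in p53-246 lymphoma 2 and 6.13 in lymphoma 3, and from 4.41 to 4.87 in the other 4, while the p53-null lymphomas ran from 4.00 to 5.17. Leaving out lymphoma 2 brought the difference to 0.49. Casp1, the inflammasome protease and also on the target list, reached 7.54 and 7.17 in p53-246 lymphomas 2 and 4 and 7.59 in p53-null lymphoma 5, so that its high values occurred in both genotypes.

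Genes that mutant p53 has been reported to raise in other tumours passed no test either. Of 39 listed 33 were measured, and 11 of these lay below the cutoff. Of 33 measured, 1 had an unadjusted p under 0.05, a share near the 2.51% of all genes, and 13 (39.4%) had a higher mean in p53-246, against 58.2% of all genes. That gene was Igf1r, the receptor for insulin-like growth factor 1, at 4.95, 5.72 and 6.49 (lowest, median and highest) in p53-246 and 4.46, 4.87 and 5.70 in p53-null lymphomas. The p53-246 values of lymphomas 1, 2 and 3 exceeded all p53-null values, and the difference was 0.69 (SE 0.28, adjusted p 0.999, limma). Vegfa, a growth factor for vessels, was at −0.31 (SE 0.17) and Asns, asparagine synthetase, at −0.36 (SE 0.21) and at −0.22 without p53-246 lymphoma 2. The list median was −0.05. Above the cutoff lay 22 of the 33, but 7350 of all 14860 genes, so the 58.2% is no background for genes at their level. Without the 2 arrays of narrow spread, 39.4% of the list and 49.9% of all genes had a higher mean. The sterol and fatty acid synthesis genes, a pathway tied to mutant p53 in breast cancer cells, had a median of −0.08 with none of 24 under the unadjusted 0.05.

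Sod2 had the smallest p of any cluster with 1 symbol. It encodes the manganese superoxide dismutase of mitochondria and is a target of NF-kB. Its levels in p53-null lymphomas 1 to 6 were 8.41, 8.71, 8.42, 8.43, 7.998 and 8.22, and in p53-246 lymphomas 7.25, 7.05, 8.17, 7.91, 7.69 and 7.17. Of the 6 p53-246 values 5 were below every p53-null value, and lymphoma 3 was the exception. The mean was 7.54 ± 0.45 in p53-246 and 8.37 ± 0.24 in p53-null lymphomas (SD, n = 6 each), a difference of −0.83 (SE 0.19, 1.77-fold) with an adjusted p of 0.999. Leaving out 1 lymphoma at a time kept it between −0.95 and −0.73. In normal B cells, where Sod2 was lower at 5.12 to 5.99, the genotype difference was −0.52 (SE 0.33, n = 2 each).

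Among the next smallest p-values of clusters with 1 symbol were those of Rpa2, Irak3, Rhbdd1 and Mars1, whose groups did not overlap. Olfr118 and Tdrkh, described below, lay among them, and the groups of Tdrkh overlapped. Rpa2, a subunit of the single-strand binding protein RPA used in replication and repair, ran from 7.71 to 8.11 in p53-246 (median 8.01) and from 8.18 to 8.64 in p53-null lymphomas (median 8.48). The gap was narrow, and the difference was −0.49 (SE 0.11, adjusted p 0.999, limma). Irak3, which restrains signalling from Toll-like receptors, ran from 5.55 to 5.95 (median 5.63) against 5.99 to 6.78 (median 6.22), a difference of −0.56 (SE 0.13). The rhomboid protease gene Rhbdd1 differed by −0.37 (SE 0.10) and Mars1, the cytosolic methionyl-tRNA synthetase, by −0.36 (SE 0.10). In normal B cells the differences of Rpa2, Irak3 and Rhbdd1 were −0.03 (SE 0.20), −0.07 (SE 0.23) and −0.02 (SE 0.17), and that of Mars1 was 0.20 (SE 0.17).

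Of 14 clusters with 1 symbol whose groups did not overlap, 11 were lower in p53-246. Over all 31 clusters without overlap, with or without a symbol, 17 were higher and 14 lower. The lean to lower values was thus not shared by all of them. Nadk, the kinase that makes NADP, differed by −0.33 (SE 0.13), and Qdpr, which regenerates tetrahydrobiopterin, by −0.27 (SE 0.09), with all 6 p53-246 values of Qdpr between 8.10 and 8.21. Among the 3 higher ones with 1 symbol was the olfactory receptor Olfr118 (difference 0.78, SE 0.19), whose values of 3.48 to 5.09 were all below the cutoff.

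**Figure D3:**
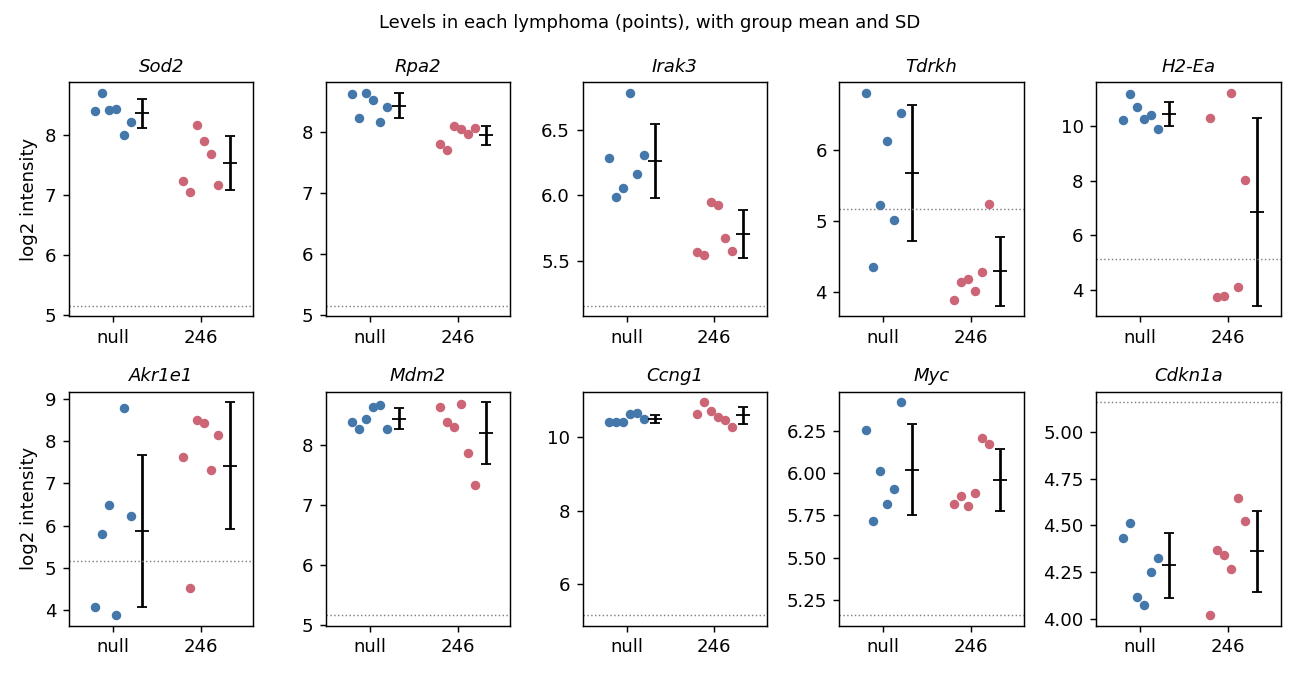
Log2 intensity of 10 genes in each of 6 p53-null (blue) and 6 p53-246 (red) lymphomas, in replicate order from left to right, with the group mean and SD as a black bar. The dotted line is the low-value cutoff of 5.16. Rpa2 and Irak3 do not overlap, In Sod2 1 p53-246 lymphoma reaches the p53-null range, and in Mdm2, Ccng1, Myc and Cdkn1a the groups overlap.

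The smallest p of all belonged to a cluster with no symbol, identifier 6782031. It was 8.63, 8.44, 8.05, 8.62, 8.83 and 7.90 in p53-246 lymphomas 1 to 6 and 7.16, 7.10, 7.35, 7.24, 7.47 and 7.88 in p53-null lymphomas. Lymphomas 6 of both groups nearly met, and the other values were well apart. The difference was 1.05 (SE 0.17, 2.07-fold, adjusted p 0.331, limma), and in normal B cells, at 7.88 and 7.87 against 7.36 and 7.40, it was 0.50 (SE 0.29). The next cluster upward, 5428030, also without a symbol, differed by 0.92 (SE 0.18) in lymphomas and by −1.19 (SE 0.31) in normal cells.

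The largest differences came from genes that were high in some lymphomas and low in others. H2-Ea, an MHC class II alpha chain, was between 9.86 and 11.16 in all 6 p53-null lymphomas, and in p53-246 lymphomas 1 to 6 it was 10.29, 3.76, 3.80, 11.19, 4.13 and 8.03. The difference of −3.56 (SE 1.35, adjusted p 0.999, limma) thus rested on 4 lymphomas, and 1 of the 2 p53-246 normal samples was also low, at 5.06 against 11.91.

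Tdrkh, a Tudor-domain gene of the piRNA pathway, took the values 6.80, 4.35, 5.22, 6.13, 5.02 and 6.52 over the p53-null lymphomas. Over the p53-246 lymphomas they were 3.89, 4.14, 4.18, 4.02, 4.28 and 5.24. Only p53-246 lymphoma 6 reached the cutoff, while 4 p53-null lymphomas exceeded it, and the difference was −1.38 (SE 0.37). Pcp4, a small calmodulin regulator, was 7.79, 9.05 and 8.79 in p53-null lymphomas 1, 4 and 5 and at most 6.41 in the other lymphomas (difference −1.49, SE 0.65), while the 4 normal samples of both genotypes ran from 7.76 to 8.71. Enpep, the BP-1 antigen of mouse B cell precursors, was at 6.54 or above in p53-null lymphomas 4, 5 and 6, at 5.94 and 6.05 in p53-246 lymphomas 1 and 2, and at most 4.61 in the others (difference −1.04, SE 0.74). Socs2, a feedback inhibitor of cytokine receptors, spanned 4.63 to 8.88 in p53-246 and 6.47 to 9.20 in p53-null lymphomas (difference −1.02, SE 0.70). Without p53-null lymphoma 6 the difference of Enpep was −0.49, and without p53-246 lymphoma 4 that of Socs2 was −0.52.

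Akr1e1, an aldo-keto reductase, was the only gene above the cutoff with 1 symbol whose mean was over 2-fold higher in p53-246. It was 7.31 or more in 5 of 6 p53-246 lymphomas and 4.52 in lymphoma 2, while p53-null lymphomas spread from 3.89 to 8.78 (difference 1.54, SE 0.79). Gtf3c5, a subunit of the RNA polymerase III factor TFIIIC, was 7.09, 5.78, 4.87, 4.78, 6.51 and 5.27 in p53-246 lymphomas, and 4.45 to 5.02 in p53-null ones. P53-246 lymphomas 1, 2, 5 and 6 lay above all p53-null ones, and the difference was 0.95 (SE 0.33) in lymphomas and −0.95 (SE 0.58) in normal cells. Smaller differences were those of the carboxypeptidase inhibitor gene Lxn at −0.93 (SE 0.38), the actin regulator Cfl1 at −0.88 (SE 0.35), the programmed cell death gene Pdcd5 at 0.69 (SE 0.29) and the phosphodiesterase gene Gdpd1 at 0.69 (SE 0.21).

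Some genes with a wide spread between lymphomas, unlike H2-Ea, were high and low in both genotypes. Over the 12 lymphomas 74 clusters, 21 of them with 1 symbol, ranged over 4 log2 units or more. Cd36, a scavenger receptor that takes up fatty acids, ran from 4.08 to 9.25 in p53-null and from 4.86 to 10.19 in p53-246 lymphomas (difference −0.06, SE 0.99). Mt2, a metallothionein that binds zinc and copper, ran from 4.57 to 8.82 and from 4.72 to 10.60 (difference 0.23, SE 0.94). The signs of both differences turned without the narrow arrays, to 0.45 for Cd36 and −0.42 for Mt2.

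Growth and replication genes had medians slightly below 0, most of them closer to 0 or above it without p53-246 lymphoma 6. Clusters above the cutoff had a median difference of −0.04, against 0.03 over all clusters. Above it lay 36 of 37 DNA replication genes and 20 of 20 oxidative phosphorylation genes, but 7350 of all 14860 genes. The 58.2% of all genes with a higher mean is thus no background for genes at their level. Of 37 DNA replication genes 6 had a higher mean in p53-246 (16.2%, against 58.2% of all genes) and 3 had an unadjusted p under 0.05, all lower (against 2.51% of all genes), with a median of −0.13. Without the narrow arrays 9 of the 37 (24.3%) and 49.9% of all genes had a higher mean. Beside Rpa2 these were Fen1, the flap endonuclease, at −0.24 (SE 0.10) and below the cutoff, and Gins1, a helicase subunit, at −0.31 (SE 0.13). Among 20 oxidative phosphorylation genes 1 had a higher mean (5%, against 58.2% of all genes), and the median was −0.17. At an unadjusted p under 0.05 there were 2, both lower, against 2.51% of all genes. They were the complex I subunits Ndufv1 (−0.50, SE 0.17) and Ndufa9 (−0.31, SE 0.14). Without the narrow arrays 4 of the 20 (20%) had a higher mean and only 1 was under that level. The 26 G1 and S regulators had a median of −0.11, with the CDK4/6 inhibitor gene Cdkn2c at −0.55 (SE 0.16) and the repressor E2f7, whose groups did not overlap, at −0.36 (SE 0.10).

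Most of the other growth lists had medians just below 0. In DNA repair, 3 of 40 had an unadjusted p under 0.05, all lower, beside the 2.51% of all genes: the recombination gene Rad54l at −0.41 (SE 0.13), the break sensor Nbn at −0.31 (SE 0.12) and the excision nuclease gene Ercc1 at −0.34 (SE 0.15). The proteasome list had 1 of 25, Psmb2 at −0.26 (SE 0.09), and a median of −0.09. The 29 Myc targets had a median of −0.08 with 1 gene under the level, Wdr74 at −0.31 (SE 0.14), and 34 mitosis genes a median of −0.08 with none. Without the narrow arrays the medians were −0.08 for DNA replication, −0.12 for oxidative phosphorylation and −0.04 for the G1 and S regulators. Those of mitosis and DNA repair turned to 0.00 and 0.01, and that of all genes went from 0.03 to 0.00. No member of any of the 31 lists passed the adjusted threshold.

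**Figure D4:**
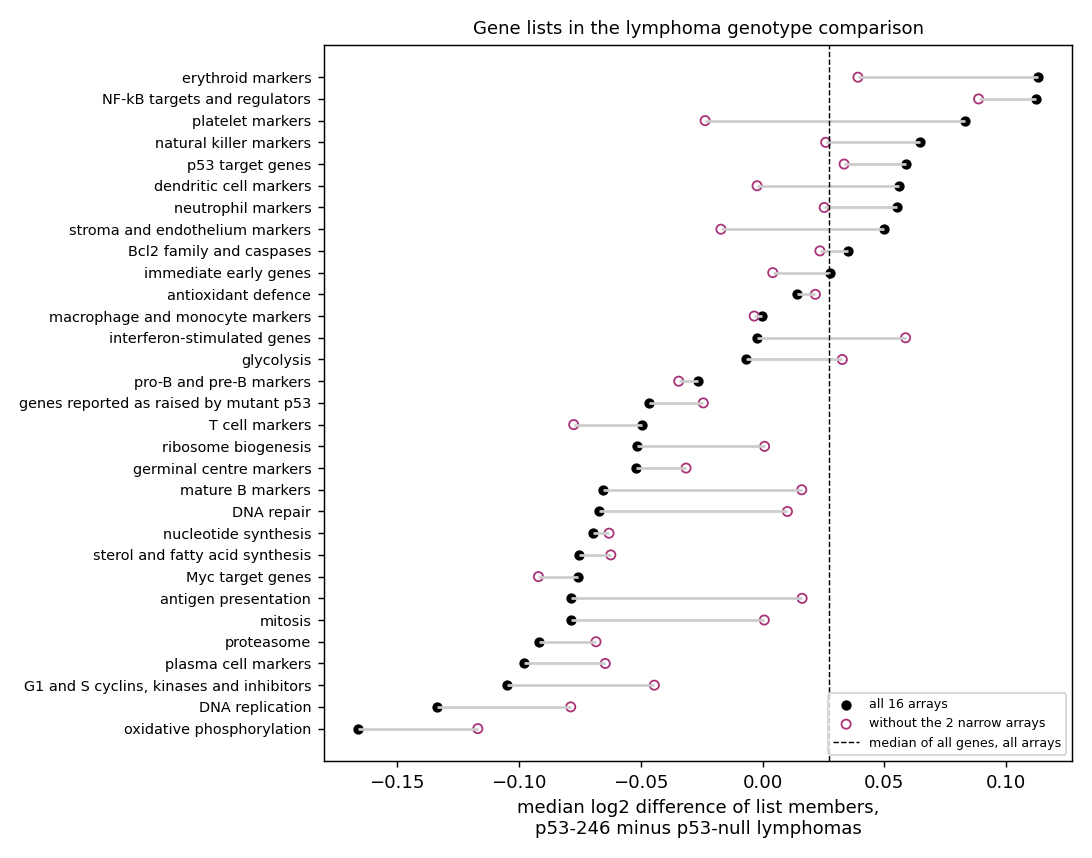
Median log2 difference, p53-246 minus p53-null lymphomas, of the measured members of 31 gene lists, with all 16 arrays (black) and without p53-246 lymphoma 6 and p53-null normal sample 1 (open). The dashed line is the median of all 14860 genes, 0.03. Medians run from −0.17 to 0.11, and several move across 0 when the 2 arrays are left out.

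In the signalling and immune lists single lymphomas stood out. Of 27 NF-kB targets and regulators, 18 (66.7%) had a higher mean in p53-246, near the 58.2% of all genes, with a median of 0.11. At an unadjusted p under 0.05 there were 3, against 2.51% of all genes. Of these Nkiras2, an inhibitor of NF-kB signalling, was higher (difference 0.44, SE 0.14), and Sod2 and Irak3 were the 2 lower ones. The mean level of that list was 6.06 in p53-246 lymphoma 2 and from 5.54 to 5.64 in the other 5. Interferon-stimulated genes were likewise highest in that lymphoma within its group, at a mean of 5.87 against 5.04 to 5.29, yet p53-null lymphoma 3 was as high at 5.91. In p53-246 lymphoma 2 the interferon-induced GTPase genes Gbp2 and Gbp3 reached 7.28 and 8.84, against at most 4.74 and 6.33 in any other lymphoma, and Cd40, a costimulatory receptor, 6.38 against at most 5.36. None of the 23 interferon-stimulated genes had an unadjusted p under 0.05 between genotypes.

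Bcl2 family members and caspases (27, median 0.04), glycolysis genes (14, median −0.01), nucleotide synthesis genes (24, median −0.07) and immediate early genes (23, median 0.03) also held none. The antioxidant list held only Sod2 among 28, with a median of 0.01, and antigen presentation only H2-Ea among 16. Ribosome biogenesis held only Wdr74 among 29.

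Markers of other cells differed between lymphomas too. In bulk RNA, fewer cells of a type and less RNA per cell cannot be told apart. T cell markers averaged 6.14 in p53-null lymphoma 6, with 15 of 19 above the cutoff, and 4.90 to 5.38 in the other 11, with 3 to 7 above it. The T cell receptor chain gene Cd3e was 7.38 there and at most 6.07 elsewhere. Macrophage markers averaged 5.77 in the same lymphoma, 4.77 to 5.48 in the other p53-null and 4.89 to 5.45 in the p53-246 lymphomas. None of the 19 T cell, 19 macrophage, 9 natural killer, 9 dendritic, 18 neutrophil, 10 erythroid, 10 platelet, 12 germinal centre or 13 plasma cell markers had an unadjusted p under 0.05 between genotypes. Of the 15 pro-B and pre-B markers the recombinase gene Rag2 did, with a difference of 1.05 (SE 0.41) at levels mostly below the cutoff, and of the 27 stroma markers the matrix gene Sparc, at −0.65 (SE 0.27). Leaving out p53-246 lymphoma 2 brought Rag2 to 0.69, and leaving out p53-null lymphoma 1 brought Sparc to −0.41. Their part in the genotype differences was not tested.

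The genotype differences in lymphomas and in normal cells had a correlation near 0. Over the 12053 clusters above the cutoff in a lymphoma group, the Pearson correlation of the 2 sets of differences was −0.024 and the Spearman correlation −0.023. Both are given as a description across clusters, which are not independent. The 2 contrasts share no arrays. In normal cells no cluster passed the adjusted threshold and 1393 had an unadjusted p under 0.05, where uniform p-values would give 1167. Eif2s3y was 9.75 and 9.91 in the p53-null normal samples and 9.52 and 3.51 in the p53-246 ones. Sex was thus not balanced in this contrast. P53-null normal sample 1 was also an array of narrow spread, with an SD of 1.73. These limits apply to the correlation as well. The test of whether the genotype difference differed between lymphomas and normal cells called 0 of 23332 (0%, smallest adjusted p 0.357, limma). At an unadjusted p under 0.05 it had 1270, again beside 1167.

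Whole chromosomes varied from lymphoma to lymphoma, and none passed the test between genotypes. The median level of the genes of each chromosome, relative to all autosomal genes and to the mean of the 12 lymphomas, was computed from 7340 genes. It was 0.2 or more log2 units from 0 in 17 of 240 chromosome values, 10 in p53-null and 7 in p53-246 lymphomas. The farthest was chromosome 12 in p53-null lymphoma 5, at −0.46, and p53-null lymphoma 1 was at 0.27 on the same chromosome. Chromosome 19 was at −0.31 and −0.28 in p53-246 lymphomas 4 and 1, at 0.23 and 0.22 in p53-246 lymphomas 2 and 6, at −0.21 in p53-null lymphoma 5 and at 0.27 in p53-null lymphoma 2. Chromosome 16 was at 0.31 in p53-246 lymphoma 4 and at 0.24 in p53-null lymphoma 3. By genotype 0 of the 20 chromosomes passed after adjustment, and the smallest exact permutation p, for chromosome 11, was 0.0952 with a difference of 0.05. Copy number was not measured.

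**Figure D5:**
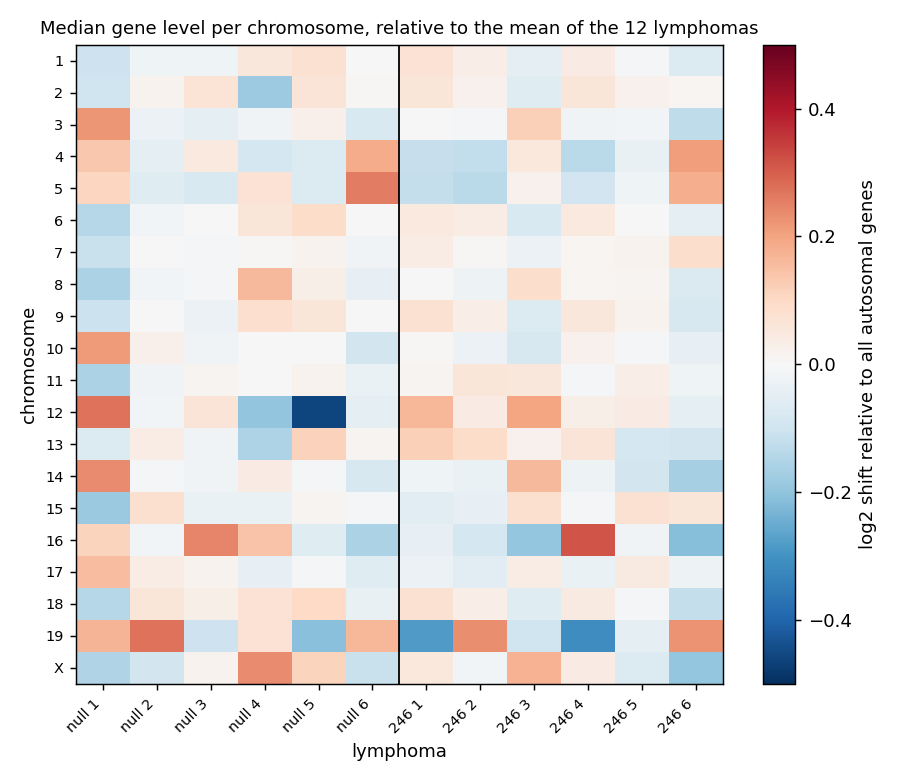
Median log2 shift of the genes of each chromosome (rows) in each of 12 lymphomas (columns, p53-null left and p53-246 right of the line), relative to all autosomal genes. Single lymphomas stand out, such as p53-null lymphoma 5 on chromosome 12 at −0.46 and p53-246 lymphoma 4 on chromosome 16 at 0.31, with no row that changes colour at the line.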

How the data were processed

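The deposited table holds log2 intensities for each transcript cluster, which the authors summarised from the array scans before deposit. Partek 6.5 and the mouse build mm8 are named in the submitters' processing notes, and the sources used here do not give the normalization. Values were used as deposited, from 2.51 to 13.5. Per the labels, the submitters ran a mixed-model ANOVA whose terms are unstated. Here limma 3.58.1 (R 4.3.3) fitted a mean per group over all 16 arrays, took the lymphoma genotype contrast, and adjusted p-values by Benjamini-Hochberg over 23332 clusters at 0.05. The fit was tested on simulated data. Figures used matplotlib 3.10.9.

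Symbols came from the platform annotation, and 14941 of the single-symbol clusters matched the reference gene table, which gave chromosomes. For lists, each of 14860 genes was represented by its brightest cluster. Named genes are the 12 smallest p in each direction (unnamed clusters at most 2 each way), the 10 largest differences in each direction above the cutoff, fixed p53 and Myc genes, the 4 smallest p of each list, the 12 largest spreads and the 10 widest gaps. Cd79b was named afterwards as a check of the label. The members, gene lists and tests were chosen with earlier results of these data known. Single values were tested by exact permutation over lymphomas, two-sided.

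The labels do not say whether replicate numbers pair the samples, and correlations cannot decide it. Correlations of deviations between same-numbered lymphomas ran from −0.17 to 0.20. Replicates 4 and 6 matched best with their own number, at 0.199 and 0.153 against means of −0.018 and −0.050 with other numbers. For p53-null lymphomas 1, 2, 3 and 5, however, the best match in the other genotype was also number 4 or 6. The own-number matches of 4 and 6 are thus no sign of pairing. Array data give no read depth, so the number of arrays limits the precision. Alternatives covered scaling, quantile normalization, filters, array weights, variance models, sex, a replicate block and leaving out arrays.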

Additional observations from a re-analysis of the deposited data

Results flagged for a closer look

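In 23 of 256 groups of 6 lymphomas examined, 1 lymphoma lay far from the other 5 (by Dixon's gap ratio at its 95% critical value), where chance gives about 5%. Several of the genes examined had been named for their spread or extremes.

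In p53-246 lymphoma 2, Gbp2 was 7.279 (others of its group 4.132 to 4.421), Gbp3 8.839 (4.987 to 6.332), Cd40 6.382 (4.931 to 5.358), the mean of the NF-kB list 6.055 (5.544 to 5.638) and that of the interferon-stimulated list 5.868 (5.044 to 5.291). The same lymphoma had Akr1e1 at 4.518 (7.314 to 8.487) and Josd2, a deubiquitinase gene named after its values were seen, at 5.708 (5.165 to 5.326).

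In p53-null lymphoma 6, T cell markers averaged 6.137 (4.957 to 5.087), natural killer markers 5.321 (4.59 to 4.837), Cd3e was 7.38 (5.164 to 5.607) and the potassium channel gene Kcnk1 8.072 (4.7 to 5.286).

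P53-246 lymphoma 6, the array of narrow spread, had a mean correlation with the other lymphomas of 0.9292, where the rest of its group had 0.9614 to 0.9695. Its Tdrkh was 5.235 (3.89 to 4.282), the GTPase gene Arf1 11.78 (9.22 to 10.15), Hepacam2 6.523 (8.081 to 8.955) and the mean of stroma and endothelium markers 4.946 (4.604 to 4.703). That marker mean was below the low-value cutoff. The median of the olfactory and vomeronasal receptor clusters was also higher in this array, at 4.43 against 3.66 to 4.08 in the other lymphomas.

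P53-null lymphoma 1 had chromosome levels of 0.2193 on chromosome 3 (−0.07638 to 0.02635), −0.1097 on chromosome 7 (−0.01754 to 0.01841) and −0.1576 on chromosome 11 (−0.0317 to 0.01918), and a mean of pro-B and pre-B markers of 5.859 (6.437 to 6.586). P53-246 lymphoma 4 had 0.3136 on chromosome 16 (−0.2132 to −0.01939). Vegfa was 6.727 in p53-null lymphoma 4 (7.155 to 7.373), and the mean of p53 targets 6.191 in p53-null lymphoma 5 (6.002 to 6.062).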

How the results depend on the processing

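The genotype comparison called 0 clusters under all 23 alternatives run, replicate block included. Its smallest adjusted p (limma) was lowest at 0.0541 after quantile normalization, 0.0761 without p53-246 lymphoma 6 and 0.0805 with array weights. Several more settings also left it below the 0.331 reported, such as 0.0839 without p53-null lymphoma 6 and 0.114 with the replicate block (limma). Some others raised it well above 0.331. It was 0.9967 over the 12 lymphomas only, 0.9987 with no moderation and 0.9993 with arrays centred on their medians. Counts at an unadjusted p under 0.05, 689 as reported, were 445 over genes with their brightest cluster, where fewer features were tested, 1044 with array weights, 852 with the replicate block, 703 with no moderation, and 588 to 1077 leaving out 1 lymphoma, the highest without p53-246 lymphoma 4 (the cause was not tested). Centring arrays on their medians gave 237 higher and 471 lower, quantile normalization 360 and 371, and leaving out the narrow arrays 516 and 458, against 295 and 394. The separation value, −0.00097, ran from −0.002772 to 0.001554 leaving out 1 lymphoma and was above 0 without p53-246 lymphoma 1 (0.001172), 2 (0.0003317), 3 (0.0009052), 4 (0.001554) or 5 (0.0002252). The log2 ratio of spreads, 0.302, was −0.004039 without p53-246 lymphoma 6, and at most 0.4379 without another lymphoma. Without that lymphoma 79 clusters did not overlap, against 31, with fewer arrays to separate. For 74 genes and 31 lists the settings were centring, quantile normalization and leaving out the narrow arrays. Differences of Cd36 (0.4471) and Mt2 (−0.4206) changed sign without the narrow arrays, while the other 220 comparisons of a gene under a setting kept their direction. In all 93 comparisons of a list the median moved by less than the spread between lymphomas. Some still crossed 0, such as DNA repair, from −0.067 to 0.010 without the narrow arrays. The intervals are unadjusted, and with 6 arrays a group even differences well beyond their half-widths, such as that of Sod2, were not called. Alternatives on non-overlap, unadjusted counts and list counts were chosen after seeing the data.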
